A study of Mus musculus with 12 samples.

Results

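The nuclear-encoded subunits of the respiratory chain were compared between CT-26 tumors of control and swimming mice. Members were the protein-coding genes of the GENCODE M21 annotation whose symbols name a subunit of complex I (Nduf), complex II (Sdha to Sdhd), complex III (Uqcr), complex IV (Cox4 to Cox8) or complex V (Atp5). This rule found 83 of the 30630 genes in the deposited tables, of which 38 belong to complex I, 4 to complex II, 8 to complex III, 16 to complex IV and 17 to complex V. The annotation holds 86 such genes, and Cox7b2, Cox8c and a second identifier named Atp5o were not analysed here. All 83 members reached the level required for the test, 0.1 FPKM in 6 or more of the tumors, so none was set aside as too weak. FPKM is the number of sequenced fragments per kilobase of gene and per 1000000 fragments. Ndufa4 was placed with complex I by its symbol, although the protein is now regarded as a subunit of complex IV. Atp5s is a coupling factor and not a core part of the ATP synthase. Cyc1, the cytochrome c1 of complex III, does not match these symbols and was counted with the electron carriers.

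CT-26 is a cell line from a colon carcinoma of the BALB/c mouse. Male BALB/c mice, 4 to 6 weeks old at purchase, received CT-26 cells in Matrigel under the skin of the right flank, 10 mice per group. Control mice carried the tumor alone, and swimming mice had 2 daily sessions of up to 30 min in water, 6 days each week, over 3 weeks. RNA of 6 tumors per group was sequenced after removal of ribosomal RNA. All tumors came from 1 cell line in 1 mouse strain, and the tissue also held cells of the host. In such bulk tissue, fewer cells of a type and less RNA per cell cannot be told apart.

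The respiratory chain lies in the inner mitochondrial membrane and moves electrons from NADH and succinate to oxygen. Complexes I, III and IV pump protons, complex II feeds electrons from the citric acid cycle, and complex V uses the proton gradient to make ATP. A small number of core subunits are encoded in mitochondrial DNA, and all others come from the nucleus and are imported. Several subunits of complex IV exist as isoforms that are restricted to heart and skeletal muscle, lung, brown fat or testis.

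The depth implied by the tables was lowest in control 2, with 12364600 fragments, and highest in control 1, with 17812100. Between tumors, Pearson's r across genes was 0.975 to 0.991. Of the markers of colon epithelium, Krt20 had a mean of 139.6 FPKM and Krt18 of 9.72 FPKM, while Epcam had 0.0422 and Cdh1 0.289 FPKM. Krt8 had a mean of 17.6 FPKM and varied from 1.86 to 129.3 FPKM between tumors. Krt19, Cdx2 and Vil1 had means of 0.173, 0.0934 and 0.0342 FPKM. Of the marker lists of skeletal muscle, adipocytes, mural cells, endothelium, fibroblasts, macrophages, epithelium and germ cells, 0 tested genes had an unadjusted p below 0.05 between the groups, and of 6 markers of T and NK cells 2 did, Cd3d and Cd8a, both higher in swimming tumors with an adjusted p of 0.889 (limma). Over all genes tested 5.56% had an unadjusted p below 0.05. The replicates are tumors of different mice.

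Respiratory chain subunits were strongly expressed and the sum over all members was nearly the same in both groups. The members added up to 5709 ± 278 FPKM in control and 5690 ± 230 FPKM in swimming tumors (SD, n = 6), which was 1.44 ± 0.0573% and 1.45 ± 0.0585% of all FPKM. The sums by complex were also within 1 SD of each other. Complex I had 1749 ± 76.9 and 1741 ± 54.9 FPKM, complex II 197.6 ± 7.77 and 197.1 ± 10.6 FPKM, and complex III 584 ± 29.2 and 577 ± 34.5 FPKM. Complex IV had 1804 ± 134 and 1791 ± 74.9 FPKM, and complex V 1375 ± 52.1 and 1384 ± 75.2 FPKM.

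**Figure D1:**
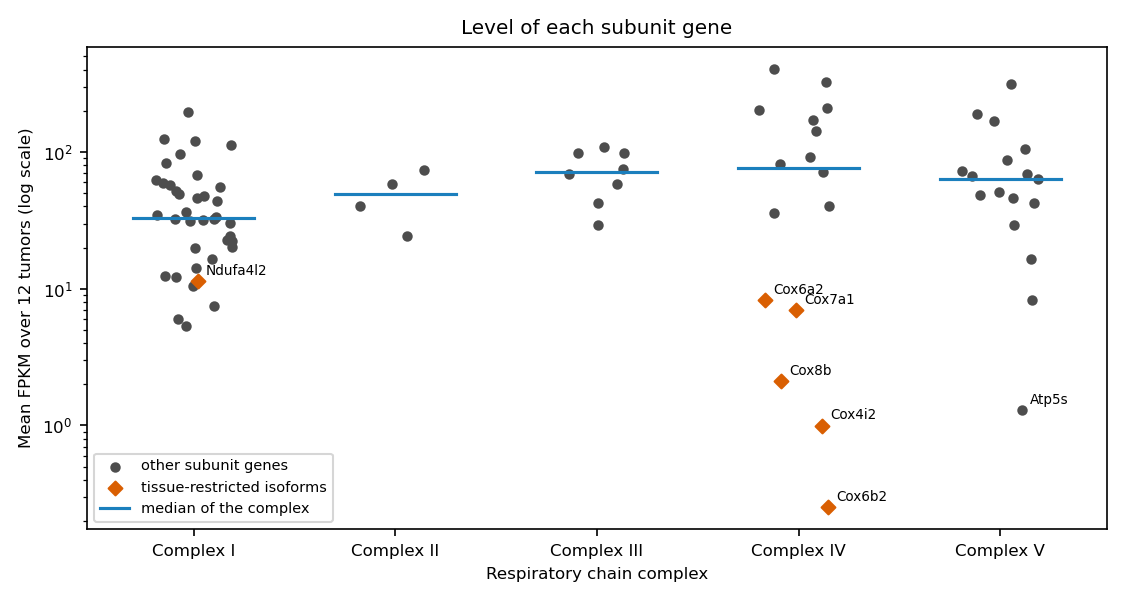
Mean FPKM over 12 tumors (y axis, log scale) of each of the 83 subunit genes, by complex (x axis). Grey circles are single genes, orange diamonds the 6 tissue-restricted isoforms and blue lines the median of each complex, from 33.2 FPKM in complex I to 76.5 FPKM in complex IV.

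The level per summed exon length spanned from 0.252 FPKM (Cox6b2) to 406 FPKM (Cox6a1). The plot of levels by complex shows that 73 members had a mean of at least 10 FPKM and that 7 of the other 10 were in complexes IV and V. Cox6a1 and Cox8a, the common isoforms of small complex IV subunits, led with 406 and 325 FPKM. Atp5b, the catalytic beta subunit of the ATP synthase, followed with 315 FPKM. In complex I the highest member was Ndufa2 with 197.6 FPKM and the lowest Ndufb2 with 5.33 FPKM, both accessory subunits. In complex II the membrane anchor Sdhd had 74.3 FPKM, the flavoprotein Sdha 58.4 FPKM, the iron-sulfur protein Sdhb 40.2 FPKM and the anchor Sdhc 24.5 FPKM. In complex III the small subunit Uqcr10 had 109.6 FPKM and the core protein Uqcrc1 29.1 FPKM. Values of 2 genes were only compared per length here, and the length used was that of all annotated exons of a gene. The order changes with that length. Per length of the transcript annotated as principal, Atp5b had 696 and Cox6a1 499. On it Sdha had 83.1 and Sdhb 78.8, above Sdhd with 74.3. Ndufa2 and Ndufb2 stayed highest and lowest in complex I. For Ndufb2 both lengths are long, 5628 and 4371 bases, so the second length tests its last place little. In mean fragments per tumor Ndufb2, with 490.6, was above Ndufc1 with 400.7, Ndufa11 with 221.3 and Ndufa4l2 with 208.5.

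Promoter sequences were searched for the motifs of factors that are known for the control of mitochondrial genes, as a description of what the members share in sequence. RefSeq promoters on GRCm38.p6, from 250 bases before to 50 after the gene start, were matched for 68 of the 83 members. Both strands were searched. The exact NRF1 motif, GCGC on either side of AT, was held by 7.35% of the members and by 1.07% of all genes. All genes here are the 27025 with a promoter, whether expressed in the tumors or not. Its relaxed form with any 2 bases in place of AT, which includes the exact one, was held by 27.9% and 7.0%. The ETS motif CCGGAAG, bound by GABP, was held by 23.5% and 9.93%, and the YY1 motif AAGATGGC by 14.7% and 3.19%. CCAAT was about as frequent in the members as in all genes, with 42.6% and 41.1%. The member promoters were also richer in CpG, with a median of 19 CpG against 7 in all promoters. The genes compared were not matched for CpG or expression, and the part of CpG in these shares was not tested. A match of letters is not a binding site, and binding was not measured.

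The next sequences are examples of a member with and a member without these motifs, chosen after the matches were seen, from 200 to 51 bases before the gene start, with motif matches in capitals. Cox6a1 (chr5:115349009-115349158, minus strand) is the strongest member per summed exon length, and Cox8b (chr7:140900497-140900646, minus strand) is an isoform of muscle and brown fat.
Cox6a1: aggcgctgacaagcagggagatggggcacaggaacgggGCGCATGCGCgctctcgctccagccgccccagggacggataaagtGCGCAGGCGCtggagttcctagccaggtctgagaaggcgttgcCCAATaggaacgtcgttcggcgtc
Cox8b: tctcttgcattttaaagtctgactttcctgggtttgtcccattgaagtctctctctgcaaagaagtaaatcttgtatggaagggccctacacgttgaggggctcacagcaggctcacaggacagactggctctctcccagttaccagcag
The Cox6a1 stretch held 15 CpG and the Cox8b stretch 1, and none of the 5 motifs was in this Cox8b window. Of the 3 tissue-restricted isoforms with a matched promoter, 2 held CCAAT and 0 held the other motifs.

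The comparison of swimming with control tumors asked whether swimming changed the expression of these genes. No member passed an adjusted p of 0.05 (limma, Benjamini-Hochberg over 19018 genes, smallest adjusted p of a member 0.889). Over all genes, 0 (0.0%) passed it as well, with a smallest adjusted p of 0.204. At an unadjusted p below 0.05, 1 member was higher and 3 were lower in swimming tumors, which is 4.82% of the members. Of all genes tested, 3.11% were higher and 2.46% lower at this level, 5.56% together, so the share of the members was near that of all genes. No member passed a fold change of 2 together with an unadjusted p below 0.05, against 0.0684% of all genes that did so upward and 0.0368% downward. No member had groups that did not overlap, against 0.0789% and 0.0684% of all genes.

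The median log2 fold change of the members was 0.0063, and that of all genes tested was 0.0039. Of the members 44 had a positive and 39 a negative log2 fold change. The medians were -0.0057 in complex I, 0.0086 in complex II, 0.0037 in complex III, 0.018 in complex IV and 0.013 in complex V. The 95% confidence interval of a member extended by a median of 0.15 to either side. Of 83 intervals, 79 lay within ±0.5 on the log2(FPKM + 1) scale, a fold of 1.41 in FPKM + 1. Thus a change of that size on this scale would have been outside the interval of those members. The 4 others were Ndufa12, Ndufa4l2, Cox6a2 and Cox8b. For weak members the same step is a larger fold of FPKM itself. Cox6b2, with 0.252 FPKM, had an interval from -0.069 to 0.35, while its mean FPKM was 1.60 times as high in swimming tumors.

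**Figure D2:**
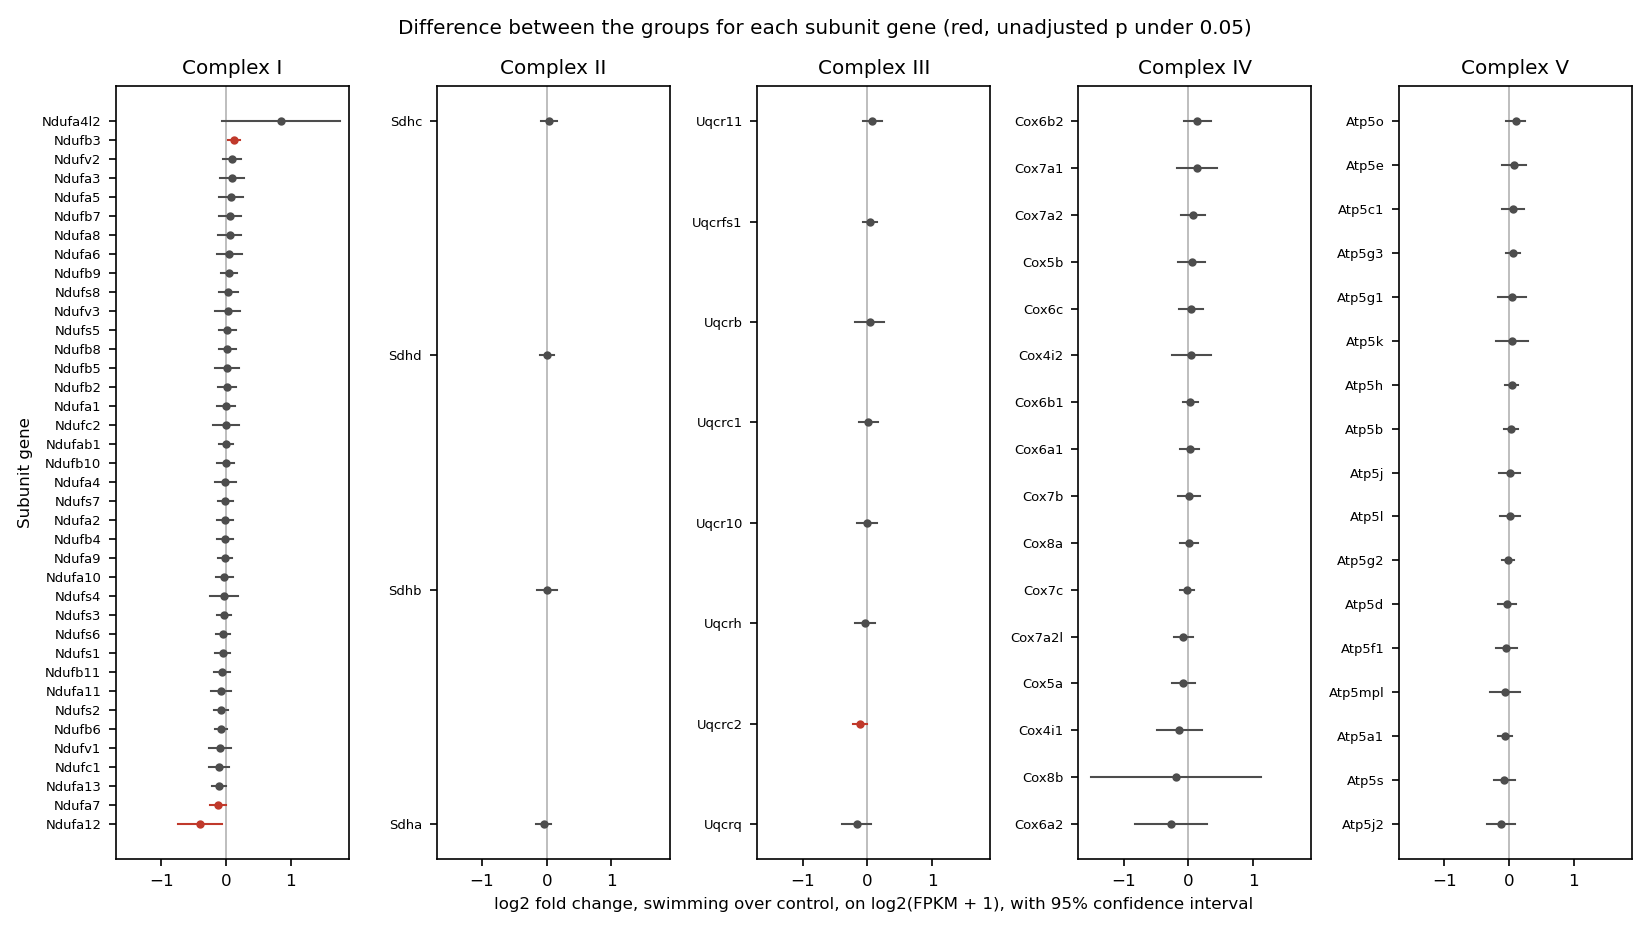
Log2 fold change of swimming over control on log2(FPKM + 1) (x axis) for the 83 subunit genes (y axis), by complex, with points for estimates and bars for 95% confidence intervals. Red marks the 4 genes with an unadjusted p below 0.05, and only Ndufa12, Ndufa4l2, Cox6a2 and Cox8b have bars that pass ±0.5.

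Members also varied little within a group. The median SD within groups was 0.12 on the log2 scale for the members and 0.15 for all genes tested. Among genes of at least 10 FPKM it was 0.11 for the 73 members and 0.13 for all 5358 genes. In 66 members the highest tumor was less than 1.5 times the lowest. In 7 members it was more than 2 times the lowest or a tumor was listed at 0, and these were Cox4i1, Ndufa12, Cox6a2, Cox4i2, Ndufa4l2, Cox6b2 and Cox8b.

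The one member that was higher was Ndufb3, an accessory subunit of the membrane arm of complex I. Control tumors had 51.1, 54.5 and 57.2 FPKM (lowest, median and highest) and swimming tumors 56.2, 59.7 and 63.2 FPKM. All 6 swimming tumors were above the control median, and the groups overlapped only between 56.2 and 57.2 FPKM. The log2 fold change was 0.12 ± 0.044 (SE), and limma gave an unadjusted p of 0.0137 (adjusted p = 0.889). The exact permutation test of the mean FPKM gave p = 0.0108.

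Uqcrc2, a core protein of complex III, and Ndufa7, an accessory subunit of complex I, were lower by small amounts. Uqcrc2 had 40.8, 43.8 and 48.7 FPKM in control and 39.5, 40.6 and 42.9 FPKM in swimming tumors. Control 2, 4 and 5 were above all swimming tumors, and the other 3 control tumors lay among them. The log2 fold change of Uqcrc2 was -0.12 ± 0.05 (unadjusted p = 0.0347, limma). Of its exon bases 19.7% lie opposite to Pdzd9, which had 0.0873 FPKM. Ndufa7 had 45.1, 47.5 and 55.0 FPKM in control and 40.3, 45.5 and 46.8 FPKM in swimming tumors. All 6 swimming tumors were below the control median, and swimming 4 and 5 were lowest. The log2 fold change of Ndufa7 was -0.13 ± 0.056 (unadjusted p = 0.042, limma). Both calls depended on single tumors. Uqcrc2 was above 0.05 without control 2, 4 or 5 or swimming 2, 3 or 6 and under quantile normalization (unadjusted p 0.0565 to 0.0803, limma). Ndufa7 was above it without control 2, 4 or 5 or swimming 3, 4 or 5, without control 1 and swimming 5 together, and under 5 other settings of scaling, variance model, weights or block (unadjusted p 0.052 to 0.109, limma).

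Ndufa12, an accessory subunit of complex I, had the largest decrease among the members. Control tumors had 23.1, 38.1 and 41.6 FPKM and swimming tumors 19.6, 25.5 and 33.8 FPKM. Control 1 and 4 lay among the swimming tumors, and control 2, 3, 5 and 6 lay above all of them. The groups thus overlapped between 23.1 and 33.8 FPKM. The log2 fold change was -0.40 ± 0.16 (unadjusted p = 0.0238, adjusted p = 0.889, limma), and the exact permutation test gave p = 0.0476. Without control 2, control 5, swimming 2 or swimming 4 the unadjusted p was 0.0514, 0.0558, 0.0529 and 0.0574.

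Ndufa12 has a nearly identical copy elsewhere in the genome, a processed pseudogene named Gm15920. Ndufa12 lies at chr10:94198720-94221443 and Gm15920 at chr5:130188395-130188796, both on the plus strand of GRCm38. The copy matches 402 bases of the Ndufa12 transcript with 2 differences, A135G and T414C, where positions are counted from the start codon of the member and the member's base stands first. The stretch around the first of them is shown because only 1 base, in capitals, differs between both loci there.
Ndufa12: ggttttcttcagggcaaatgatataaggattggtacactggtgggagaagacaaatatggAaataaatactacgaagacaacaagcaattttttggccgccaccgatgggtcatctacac
Gm15920: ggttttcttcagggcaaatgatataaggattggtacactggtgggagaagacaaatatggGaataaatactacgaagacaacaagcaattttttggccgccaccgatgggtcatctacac

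The levels of Ndufa12 and Gm15920 ran opposite to each other across the tumors, and their sum varied little. In fragments per 1000000 fragments (FPM), Ndufa12 had 54.2 ± 11.5 in control and 40.4 ± 8.26 in swimming tumors (exact permutation p = 0.0476), and Gm15920 had 64.1 ± 12.1 and 73.9 ± 9.76 (exact permutation p = 0.154). Their sum was 118 ± 4.0 and 114 ± 3.24 (exact permutation p = 0.0909). Over the 12 tumors the coefficient of variation was 25.3% for Ndufa12, 16.9% for Gm15920 and 3.49% for their sum. Pearson's r was -0.94 (permutation p = 4e-05, adjusted over 11 relations 0.00044) and Spearman's rho -0.93 (adjusted p = 0.00044). Without control 2 and control 5, the tumors farthest from the median of the copy, r was -0.92, and it was -0.94 within control and -0.95 within swimming tumors. With the fragments of the copy added to the member, the log2 fold change was -0.05 and the unadjusted p 0.213 (limma). How the quantification divided fragments between both loci was not tested.

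Uqcrb, a small subunit of complex III, was low where its copy was high in 3 tumors. It lies at chr13:66900617-66905378 on the minus strand, and its copy Gm2962 at chr1:170925309-170925644 on the minus strand matches 336 bases with 6 differences (T117A, G180T, G215T, A239C, G309A and G312A). The stretch below holds 4 of them, in capitals.
Uqcrb: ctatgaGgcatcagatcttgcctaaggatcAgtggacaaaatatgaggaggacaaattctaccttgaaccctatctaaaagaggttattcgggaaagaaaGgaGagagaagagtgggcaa
Gm2962: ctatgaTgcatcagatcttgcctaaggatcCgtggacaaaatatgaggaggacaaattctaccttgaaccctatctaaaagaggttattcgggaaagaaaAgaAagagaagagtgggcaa

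Control 1, control 5 and swimming 3 had 85.9, 80.0 and 74.4 FPKM of Uqcrb, and the other 9 tumors had between 96.2 and 110.2 FPKM. The same 3 tumors had the most Gm2962, with 61.2, 50.3 and 55.6 FPKM against at most 26.4 FPKM in the others. Since the tumors fell into 2 sets, no r over all tumors is given. The coefficient of variation was 12.1% for Uqcrb and 6.28% for the sum with its 3 copies. Between the groups Uqcrb had a log2 fold change of 0.034 ± 0.1 (unadjusted p = 0.745, limma).

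**Figure D3:**
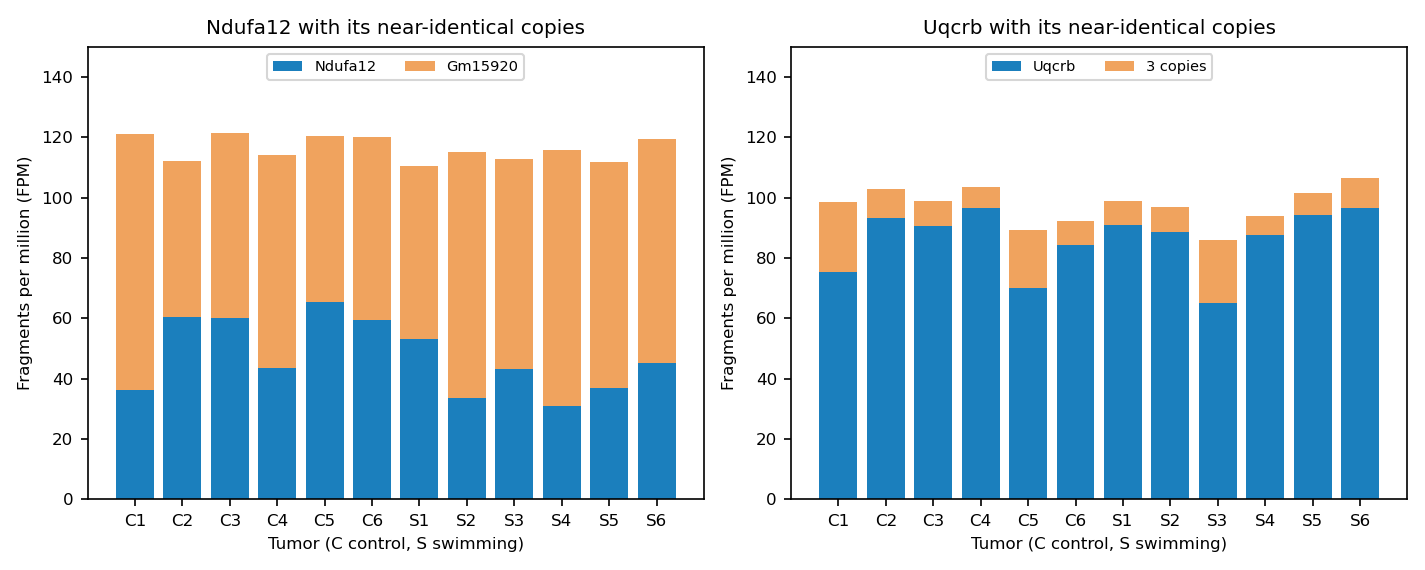
FPM (y axis) in each tumor (x axis, C control and S swimming) given to the subunit gene (blue) and to its near-identical copies (orange), stacked, for Ndufa12 with Gm15920 and for Uqcrb with 3 copies. The blue part of Ndufa12 varies from 30.8 to 65.3 while the full bar stays between 110.4 and 121.5, and C1, C5 and S3 have the largest orange part for Uqcrb.

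Near-identical copies of at least 95% identity over at least 150 bases were found for 23 members. In 11 of them the copies held at least 5% as many fragments as the member. The share was largest for Ndufa12 (147%) and Atp5g1 (116%), an isoform of the c subunit of the ATP synthase whose copy Gm10039 differs in 1 of 411 bases (G385A). Other members ran the same way as their copies. Pearson's r was 0.70 for Ndufab1, 0.70 for Ndufb4 and 0.71 for Cox5b, each with an adjusted permutation p of 0.0266, and rho was 0.74, 0.70 and 0.70, each with an adjusted p of 0.0404. Within control tumors their r was 0.76, 0.57 and 0.87, within swimming tumors 0.86, 0.77 and 0.65, and without the 2 tumors farthest from the median of the copies 0.69, 0.74 and 0.74. For Uqcr11, Cox7c, Atp5g2, Atp5h and Atp5l r lay between -0.013 and 0.60, with adjusted p from 0.0706 to 0.968. For Atp5g1 and its copy no relation was detected, with r = -0.13 (permutation p = 0.694, adjusted 0.812) and rho = -0.17 (adjusted p = 0.738). Ndufb3 has 1 copy with 0.035% as many fragments. Levels of the 11 members are uncertain to the extent that fragments were given to the copies. Further, 30 members share exon bases with another gene, 5 of them on the same strand, and the library kit does not mark strand.

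Of the 6 tissue-restricted isoforms, 5 were weak beside the common ones. The exception was Ndufa4l2, which made up 8.34 to 41.4% of the sum of Ndufa4 and Ndufa4l2. All shares here are of FPKM per summed exon length and depend on that length. On it Ndufa4 had a mean of 36.5 and Ndufa4l2 of 11.4 FPKM. Per length of the principal transcript these were 82.6 and 13.4, so the share of Ndufa4l2 is smaller on that length. Cox7a1, the isoform of heart and skeletal muscle, made up 5.03 to 11.7% of the sum of Cox7a1 and Cox7a2. Cox6a2, also of heart and muscle, made up 1.01 to 3.02% of Cox6a1 and Cox6a2. Cox4i2, known from lung, made up 0.185 to 0.946% of Cox4i1 and Cox4i2. Cox6b2, the testis isoform, made up at most 0.269% of Cox6b1 and Cox6b2, and it was listed at 0 in control 4. The shares did not differ between the groups beyond their spread, with exact permutation p from 0.141 (Ndufa4l2 of Ndufa4 and Ndufa4l2) to 0.937 (Cox8b). The c subunit isoforms of complex V varied little, and Atp5g2 held 64.3 ± 0.959% in control and 63.2 ± 1.75% in swimming tumors, Atp5g3 32.6 ± 0.876% and 33.6 ± 1.31%, and Atp5g1 3.10 ± 0.321% and 3.20 ± 0.478%. The fragments given to the copy of Atp5g1, 116% as many as its own, are not in its share. The summed exons of Atp5g1, 4912 bases, are also longer than the 1675 of Atp5g2 and the 2181 of Atp5g3.

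**Figure D4:**
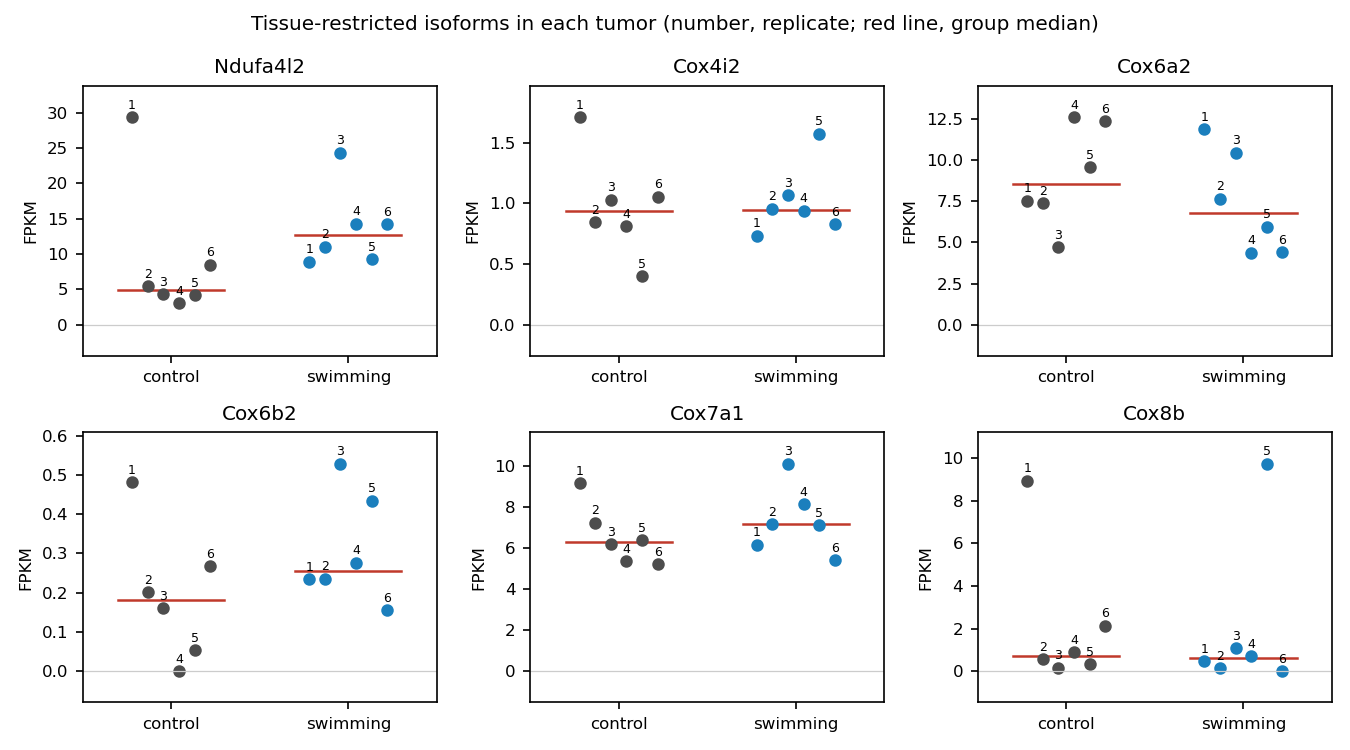
FPKM (y axis, linear) of the 6 tissue-restricted isoforms in each control and swimming tumor (x axis), with points numbered by replicate and red lines for group medians. Control 1 is highest in its group for 5 of them, and Cox8b is at 8.93 FPKM in control 1, 9.73 FPKM in swimming 5 and at most 2.14 FPKM elsewhere.

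Ndufa4l2, an isoform of Ndufa4 known to be induced under low oxygen, had the largest positive log2 fold change and did not pass the test. Control tumors had 3.03, 4.91 and 29.4 FPKM and swimming tumors 8.91, 12.7 and 24.4 FPKM. All 6 swimming tumors were above 5 of the 6 control tumors, and control 1 was above all tumors. The log2 fold change was 0.85 ± 0.42 (unadjusted p = 0.0631, adjusted p = 0.889, limma), and the exact permutation test of mean FPKM gave p = 0.368. Without control 1 the log2 fold change was 1.25 (unadjusted p = 0.000406, adjusted p = 0.742, limma). Leaving out any other single tumor gave 0.67 to 0.95, with an unadjusted p of 0.055 to 0.141 (limma). Without control 1 and swimming 5 the log2 fold change was 1.34 with an adjusted p of 0.889 (limma). Those tumors had the highest adipocyte, fibroblast, mural cell and endothelial scores. Ndufa4l2 shares 2.92% of its exon bases with Shmt2 on the other strand, which had 109.1 FPKM. Ndufa4 itself had 36.7 ± 4.15 and 36.4 ± 3.00 FPKM.

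Across the 12 tumors Ndufa4l2 was compared with a score of HIF-induced genes, the mean deviation of log2(FPKM + 1) over 16 gene identifiers that do not include it. They stand for 15 genes, since Aldoa is listed under separate identifiers. Pearson's r was 0.79 (permutation p = 0.00263, adjusted over 9 relations 0.0237) and Spearman's rho 0.71 (permutation p = 0.0122, adjusted 0.0549). Without swimming 3 and swimming 5, r was 0.82, and it was 0.80 within control and 0.79 within swimming tumors. Of the 16 identifiers, 3 were higher at an unadjusted p below 0.05 and 0 were lower, beside 3.11% and 2.46% of all genes tested. These were Bnip3, a mitophagy receptor, P4ha1, a collagen prolyl hydroxylase, and Pfkfb3, a regulator of glycolysis, with log2 fold changes of 0.65, 0.25 and 0.48. Each had an adjusted p of 0.889 (limma), and the exact permutation test gave p = 0.0325 for Bnip3, 0.0952 for P4ha1 and 0.0736 for Pfkfb3. With the mural cell score Ndufa4l2 had r = 0.50 (adjusted p = 0.153) and rho = 0.49 (adjusted p = 0.196).

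**Figure D5:**
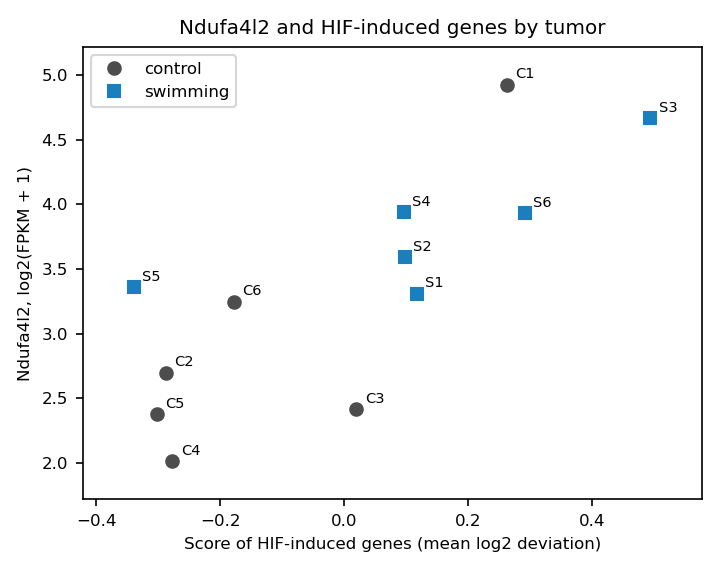
Ndufa4l2 as log2(FPKM + 1) (y axis) against the score of HIF-induced genes over 16 identifiers (x axis, mean log2 deviation) in 6 control (grey circles, C) and 6 swimming tumors (blue squares, S). The points mostly rise from C2, C4 and C5 to S3 and C1, with r = 0.79 over 12 tumors. S5 has the lowest score, -0.34, but lies above all control tumors except C1 in Ndufa4l2.

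Cox8b, an isoform of muscle and brown fat, was high in 1 tumor of each group. It had 0.164, 0.726 and 8.93 FPKM in control tumors and 0, 0.599 and 9.73 FPKM in swimming tumors. Control 1 and swimming 5 were far above the others, and these 2 tumors also had the highest adipocyte scores, 2.61 and 1.02. They were highest as well in the fibroblast (1.15 and 1.14), mural cell (0.51 and 0.49) and endothelial scores (0.34 and 0.38). Swimming 5 also had the highest skeletal muscle score, 2.02, while control 1 had -0.13. With the adipocyte score r was 0.80 (permutation p = 0.0109, adjusted 0.0327) and rho 0.38 (adjusted p = 0.344), and without control 1 and swimming 5 r was -0.14, so this relation rests on those tumors. With the skeletal muscle score r was 0.64 (permutation p = 0.0249, adjusted 0.056) and rho 0.86 (permutation p = 0.00087, adjusted 0.00783). Without control 6 and swimming 5 that r was 0.39 and rho 0.82. Within control tumors r was 0.43, and within swimming tumors it was 0.83. The muscle markers, 17 of 18 of which were tested, summed to 3.73 to 263.9 FPKM in control and 2.73 to 372 FPKM in swimming tumors. The adipocyte markers, 6 of 10 of which were tested, summed to 9.0 to 193.9 FPKM and 11.8 to 49.5 FPKM. Of the defining ones, Ucp1 of brown fat had 1.8531 FPKM at most and Adipoq 12.6 FPKM. The part of these cells in the level of Cox8b was not tested.

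The other isoforms gave weaker relations. Cox4i2 had r = 0.75 with the mural cell score (permutation p = 0.00603, adjusted 0.0271) and rho = 0.64 (adjusted p = 0.0909), but r fell to 0.20 without control 1 and swimming 5. Cox6a2 had r = 0.28 (adjusted p = 0.424) and rho = 0.23 (adjusted p = 0.587) with the skeletal muscle score. Cox7a1 had r = 0.31 (adjusted p = 0.411) and rho = 0.17 (adjusted p = 0.587) with it, and r = 0.54 (adjusted p = 0.115) and rho = 0.59 (adjusted p = 0.109) with the adipocyte score. Cox4i2 had r = 0.22 (adjusted p = 0.49) and rho = 0.18 (adjusted p = 0.587) with the score of HIF-induced genes.

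Cox4i1, the common isoform of subunit 4 of complex IV, differed 2.1 times between its highest and lowest tumor, close to the 2.12 times of Ndufa12. Control tumors had 132, 165 and 258 FPKM and swimming tumors 122.5, 162 and 214 FPKM. Control 1, control 5 and swimming 6 were the 3 highest tumors, so high values occurred in both groups. The log2 fold change was -0.14 ± 0.16 (unadjusted p = 0.413, limma). The catalytic subunits of complex V were steadier. Atp5b had 297, 312 and 324 FPKM in control and 297.5, 310.5 and 352 FPKM in swimming tumors, a log2 fold change of 0.027 ± 0.05. The flavoprotein Sdha of complex II had 57.3, 59.3 and 61.7 FPKM and 49.6, 59.0 and 61.6 FPKM, a log2 fold change of -0.05 ± 0.053.

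Genes that act together with the subunits were counted beside the background of 5.56%. Of 46 assembly factors tested, which build the complexes, 0 were higher and 0 lower at an unadjusted p below 0.05, with a median log2 fold change of -0.0061. Of 5 electron carriers, among them Cyc1 of complex III, 0 passed. Of 16 genes of the citric acid cycle 0 were higher and 1 was lower, Dld, the shared dehydrogenase subunit, with a log2 fold change of -0.15 (unadjusted p = 0.0422, limma). Of 13 genes of mitochondrial biogenesis 1 was higher, the mitochondrial rRNA methyltransferase Tfb1m, with 0.18 (unadjusted p = 0.014, limma), and 0 were lower. None of these had an adjusted p below 0.05.

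Of the 13 subunit genes in mitochondrial DNA, 1 was higher, mt-Atp6 of complex V, with a log2 fold change of 1.09 (unadjusted p = 0.0389, adjusted p = 0.889, limma). It had 2080, 2527 and 2183 FPKM in swimming 3, 4 and 5, and between 393 and 507 FPKM in the other 9 tumors. Swimming 1 and 6 were within the range of the control tumors and swimming 2 was below it, and the exact permutation test gave p = 0.16. mt-Atp8, which overlaps mt-Atp6, had a log2 fold change of -0.078 (unadjusted p = 0.417, limma). The median over the 13 genes was 0.0034. Of 79 cytosolic ribosomal proteins 1 was higher and 2 were lower, with a median of -0.048.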

How the data were processed

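RNA was sequenced from 12 CT-26 tumors, 6 control and 6 swimming, with groups and replicate numbers taken from the sample labels. Libraries were made by the authors after removal of ribosomal RNA with a kit that does not mark strand. The submitters' processing notes name HISAT2 2.0.5, StringTie 1.3.3, GRCm38 and hg38, and the deposited tables list mouse Ensembl identifiers. The authors deposited FPKM values per gene, which are divided by exon length and by depth. Members were matched by identifier to GENCODE M21 on GRCm38.

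For about 97.1% of weak genes, FPKM times the summed exon length was a multiple of 0.25 of 1 fragment, within 0.05 of that step. From this the depth, 12364600 to 17812100 fragments per tumor, and the fragments per member were recovered. For 71 of 83 members all tumors fell on these steps. Weak members such as Cox8b, with 0 to 60 fragments per tumor, carry large counting error. No count test was run, because the unit is FPKM.

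Groups were compared on log2(FPKM + 1) in limma 3.58.1 under R 4.3.3 (lmFit, then eBayes with trend), for the 19018 genes that reached 0.1 FPKM in 6 or more tumors, with Benjamini-Hochberg adjustment over all of them. Fold changes are on this scale and understate changes of weak genes. For single values a two-sided exact permutation test was run over the 924 divisions of the tumors, whose smallest p is 0.00216. Relations used 100000 permutations, two-sided, for 9 pairs of isoform and marker score and 11 pairs of member and copies, and tumors were also taken within groups. Scores are the mean deviation of log2(FPKM + 1) of the listed genes tested. Near-identical copies were found with BLAST 2.17.0. Promoter sequences are from RefSeq on GRCm38.p6. In simulated data 200 of 19018 genes were changed. Of genes changed by 0.5 on the log2 scale 75% had an adjusted p below 0.05, and of those changed by 1, 93%. The changed genes were drawn from the stronger genes only. Values were independent normal draws with the mean and SD of each gene, without outlying tumors or correlation between genes. The shares therefore do not cover weak members such as Cox8b, Cox6b2, Cox4i2 and Atp5s. The adjustment is also stricter where fewer than 200 genes change, so the shares are too high for a change of few members.

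Named genes were isoforms and paralogs, members with an unadjusted p below 0.05, the highest, lowest and most changed members of each complex, core subunits, and genes of the other lists with an unadjusted p below 0.05. Ndufa12, Uqcrb and Atp5g1 were described with their copies after the values were seen. The members and the lists were chosen with earlier results of these data known. Alternatives changed the pseudocount, the filter, the scaling, the variance model, sample weights, a replicate block, a muscle covariate and the tumors used. Python 3.11.15, pandas 2.3.3, scipy 1.17.1 and matplotlib 3.10.9 were used.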

Additional observations from a re-analysis of the deposited data

Results flagged for a closer look

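In each group of 6 tumors, the gap between the highest or lowest tumor and its nearest neighbour was set against the range of the group for 90 groups of values of members and scores. In 5 groups this ratio passed Dixon's 95% critical value for 6 values, and chance alone gives about 1 in 20, which is 4.5 of 90. Ndufa4l2 was 29.4 FPKM in control 1, with the other control tumors between 3.03 and 8.49 FPKM, and 24.4 FPKM in swimming 3, with the others between 8.91 and 14.3 FPKM. Cox8b was 8.93 FPKM in control 1, with the others between 0.164 and 2.14 FPKM, and 9.73 FPKM in swimming 5, with the others between 0 and 1.08 FPKM. The complex IV score, which includes Cox8b, was 0.19 in swimming 5, with the others between -0.068 and -0.021.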

How the results depend on the processing

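Of the counts of members at an unadjusted p below 0.05 (limma), the lower count was 1 under quantile normalization, and the higher count was 2 with sample weights and 2 without control 1 and swimming 5 together, an alternative chosen after seeing the data. Leaving out 1 tumor gave 1 to 3 higher and 0 to 5 lower members, with 3 higher without control 1, 0 lower without control 2 or control 5, and 5 lower without swimming 6. Ndufb3 passed in each of the 25 alternatives. With the replicate number as a block, 1 member was higher and 2 were lower, and Ndufa7 had an unadjusted p of 0.109 by limma. The numbers share only their labels, since same-numbered tumors correlated at -0.32 to 0.0059 and 0 control tumors correlated best with their own number. At an adjusted p below 0.05 no member passed in any alternative, and of all genes 1 passed with sample weights, 3 without control 4 and 2 without swimming 1. Over the alternatives the median lay between -0.015 and 0.019 for all members and between -0.022 and 0.055 for single complexes. When 1 tumor was left out, the median of all members and of each complex fell on both sides of 0.

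Of 997 log2 fold changes of named members, 908 kept their direction and their side of the threshold, and 59 changed sign, in 15 members whose values were at most 0.19. Without control 1 and swimming 5 the values were 0.018 for Ndufa2, 0.027 for Ndufa4, -0.0017 for Ndufb2, -0.013 for Sdhb, 0.017 for Uqcr10 and 0.024 for Atp5g2. Under quantile normalization they were 0.00095 for Ndufa4 and 0.0027 for Uqcr10, on the TPM scale 0.0023 for Uqcr10, with sample weights -0.013 for Ndufb2 and 0.012 for Uqcr10, with a muscle covariate -0.0014 for Sdhb, and with copies added -0.015 for Atp5g1. When 1 tumor was left out, the ranges were -0.053 to 0.0081 for Ndufa2, -0.037 to 0.034 for Ndufa4, -0.017 to 0.042 for Ndufb2, -0.027 to 0.047 for Sdhb, -0.0095 to 0.033 for Sdhd, -0.043 to 0.023 for Uqcr10, -0.018 to 0.060 for Uqcrc1, -0.048 to 0.14 for Cox4i2, -0.023 to 0.066 for Cox6a1, -0.027 to 0.052 for Cox7b, -0.029 to 0.043 for Cox8a, -0.67 to 0.24 for Cox8b, -0.0031 to 0.045 for Atp5b, -0.019 to 0.10 for Atp5g1 and -0.026 to 0.0072 for Atp5g2. The cause was not tested.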
